A study of Rattus norvegicus with 9 samples.

Results

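The early response of the rat supraoptic nucleus to water deprivation was measured by setting the 3 arrays of rats dehydrated for 1 day against the 3 arrays of control rats. These 6 arrays, of the 9 in the series, were chosen by their labels and carry total RNA of the nucleus of Sprague Dawley rats, all male and 10 to 12 weeks of age. The remaining 3 arrays, from rats dehydrated for 3 days, entered the filter on low signals and the estimate of the spread between arrays, and their signals are given only where named. Both groups have replicates a, b and c, and each 1-day array was paired with the control array of the same letter. The meaning of the letter is not labelled, nor is it labelled whether an array carries the RNA of 1 animal or of a pool. The p-values therefore rest on the spread between samples that may be technical replicates.

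The supraoptic nucleus is a small hypothalamic cell group. Its magnocellular neurons send axons to the posterior pituitary, where they release vasopressin, the hormone that makes the kidney retain water, and oxytocin. When the blood becomes more concentrated these neurons fire more, release stored hormone and make more of it, and the glia around them withdraw from their surfaces. Genes that such a stimulus is known to engage include activity-induced transcription factors, the hormone precursors and their processing enzymes, and the machinery of protein synthesis and secretion.

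The defining transcripts of the nucleus were bright on the arrays. The control signals of Avp, the vasopressin precursor, were 2868, 2487 and 1765 for letters a, b and c, the order used for every set of 3 values below. Those of Oxt, the oxytocin precursor, were 3074, 2331 and 208. Signals are MAS5 intensities on a linear scale, in arbitrary units. The tissue was not pure. Transcripts of the neighbouring lateral hypothalamus were present, with Hcrt, the orexin precursor, at 549, 161 and 844 in control and 594, 303 and 419.6 at 1 day, and so was the myelin gene Mbp, at 2771, 2270 and 1406 in control and 2947, 1751 and 1166 at 1 day. In such bulk samples, fewer cells of a type and less RNA per cell cannot be told apart.

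Letter c stood apart in both groups. Its brightest signals were 2105 in control and 2239 at 1 day, against 3867 to 4137 on the other 4 arrays, and Oxt was at 208 and 272 on its control and 1-day arrays, against 2331 to 3318 on the others. A second tested probe set of Avp was at 8.2 and 0.1 on these 2 arrays, against 653 to 1790 on the other 4. The 1-day array of letter c differed further from all others. Its ratio of 3' to 5' signal was 4.81 for hexokinase and 1.48 for beta-actin, against 1.23 to 3.09 and 0.74 to 1.32 on the other 5. It had 13 signals of 0, and the other 5 arrays had 0. On it, 93 of the 5247 tested probe sets (1.77%) lay under 0.25 of the lowest of the other 5 arrays, against 3, 11 and 3 on the control arrays and 3 and 12 on the 1-day arrays of letters a and b. Signals more than 4 times above the other 5 arrays numbered 0 on this array and at most 2 on any other. The 93 probe sets had a median signal of 7.1 on it, against 77.5 on the control array and 73.8 on the 3-day array of the same letter. Their median log2 difference between 1 day and control was -0.996 with this array and -0.02 without it, so where leaving it out turned the sign of a gene's difference or moved it by more than 1.5 times, both values are given below. Leaving it out also turned the sign of the median of 13 of the 37 gene lists described below.

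**Figure D1:**
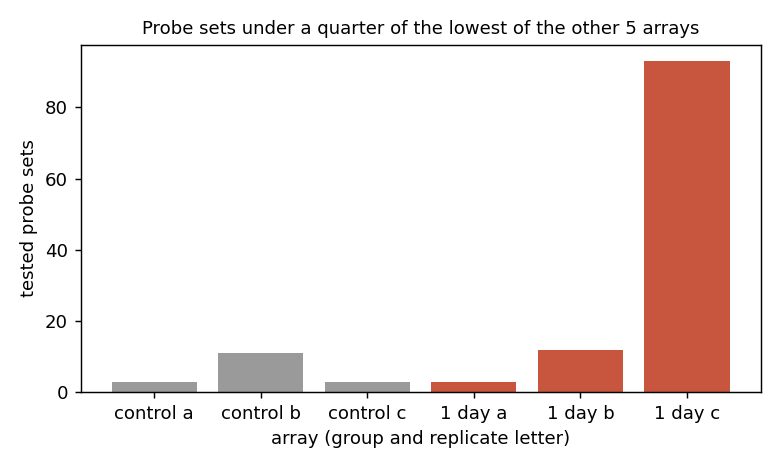
Tested probe sets whose signal, with the pseudocount added, lay under 0.25 of the lowest of the other 5 arrays. The y axis counts probe sets and the x axis gives each array by group and letter. The 1-day array of letter c has 93, and the other 5 arrays have between 3 and 12.

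After 1 day of dehydration no gene passed the test. Of 5247 tested probe sets, 0 (0.0%) had a limma adjusted p under 0.05, and the smallest adjusted p was 0.958. With no adjustment, 82 (1.56%) stood higher and 54 (1.03%) lower at a p under 0.05, together 136 (2.59%). That count was 90 without control array b, 250 without 1-day array a, 213 without 1-day array b and 230 without 1-day array c. In 138 (2.63%) every 1-day array exceeded every control array, and in 83 (1.58%) every one lay below, together 221 (4.21%). The mean was higher at 1 day in 2763 (52.7%) and lower in 2484 (47.3%). All 3 letter pairs were higher in 881 (16.8%) and lower in 487 (9.28%). Only 2 (0.0381%), both without a gene symbol, were at least 2-fold higher in every pair, and 5 (0.0953%) were at least 2-fold lower in every pair. Because no gene passed, every difference below is given as a value, and "higher" and "lower" describe these samples. Differences are on the scale of log2(signal + 4), as the fitted value ± its standard error from limma with the letter as a block.

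The split between higher and lower depended on how the arrays were scaled. The median log2 difference over all tested probe sets was 0.02, and for letters a, b and c taken singly it was 0.01, 0.03 and 0.10. After median centring of the arrays, the split of probe sets at an unadjusted p under 0.05 turned from 82 higher and 54 lower to 62 higher and 74 lower.

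By the median absolute difference, arrays of the same letter resembled each other more than arrays of the same treatment did. The median absolute log2 difference between a control array and its 1-day partner was 0.25, 0.38 and 0.30 for letters a, b and c. Between 2 control arrays it was 0.42 to 0.47, and between arrays of the 1-day group 0.48 to 0.56. By Pearson correlation the same held for letters a and c, at 0.950 and 0.908, but not for letter b. Its 0.887 lay within the 0.884 to 0.903 between control arrays. The median standard error of a log2 difference was 0.30 with the letter as a block and 0.40 without it. In the dimmest 25% of the tested probe sets by mean signal, the median absolute difference was 0.33 and the median standard error 0.45. In the brightest 25% they were 0.15 and 0.22. Small differences could therefore be resolved best in bright genes, and most of the large ones were in dim genes.

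**Figure D2:**
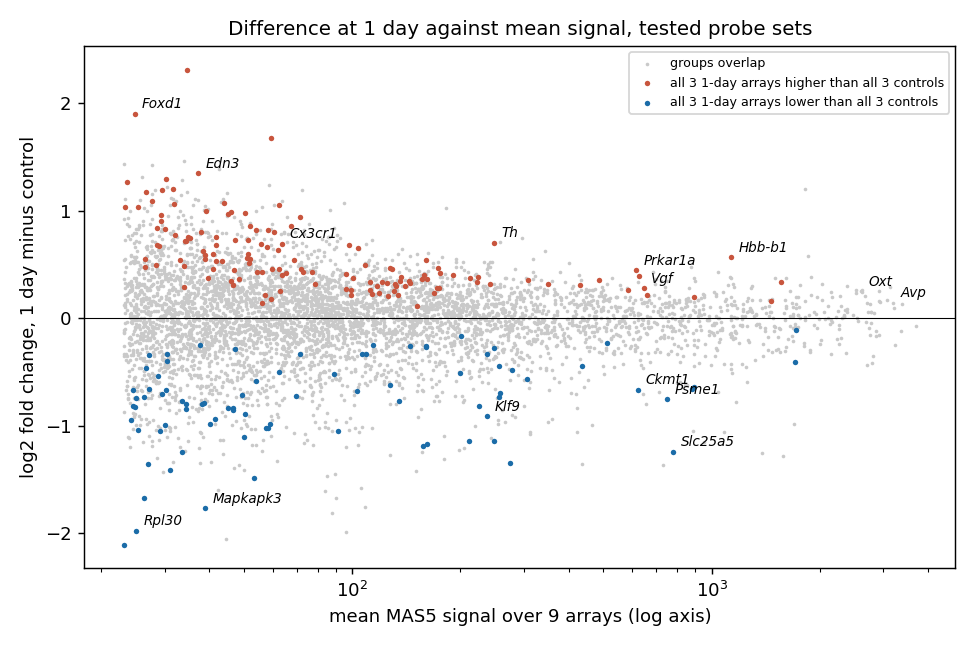
Log2 difference between 1 day and control (y axis) against the mean MAS5 signal over 9 arrays (x axis, log scale) for the 5247 tested probe sets. Coloured points are the 138 probe sets with all 1-day arrays above all control arrays and the 83 with all below. The differences narrow as the signal grows, and the genes named are labelled at their probe set.

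Among the hormone and peptide precursors and other cargo of the secretory granule, 0 of 25 tested genes passed. Of these, 16 stood higher and 9 lower, with a median log2 difference of 0.13, against 0.03 over all 3189 tested genes. The median within letter pairs was 0.28, 0.14 and 0.06. Without the 1-day array c the list's median was 0.21. Avp was at 3189, 3292 and 1622 on the 1-day arrays, higher than its partner in pairs a and b and lower in pair c, a log2 difference of 0.15 ± 0.32, or 0.46 ± 0.34 without the 1-day array c, while its other tested probe set stood at -0.60 ± 1.56. Oxt was at 2816, 3318 and 272, with a difference of 0.25 ± 0.74, or 0.85 ± 0.76 without the 1-day array c. For neither hormone precursor did the 1-day arrays separate from the control arrays.

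Vgf, the precursor of several secreted peptides, had signals of 477, 584 and 570.0 in control and 663, 642 and 666 at 1 day. Each of its 1-day signals exceeded each control signal, but the difference was small, 0.28 ± 0.19. Penk, the enkephalin precursor, was higher in all 3 pairs, at 161, 297 and 284 in control and 241, 357 and 341 at 1 day (0.37 ± 0.19), with overlapping groups. Pdyn, which encodes prodynorphin, a product of vasopressin neurons, was at 643, 529 and 650.5 in control and 939.8, 448 and 709.7 at 1 day. It was higher in pairs a and c and lower in pair b (0.14 ± 0.23), while its other tested probe set stood at 0.34 and was higher in each pair. Cartpt, which encodes the CART peptides, differed by 0.51 ± 0.26, mostly through pair a, where it was 56.6 in control and 129.6 at 1 day.

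The largest differences among the peptides were in dim genes. Edn3, which encodes the vasoactive peptide endothelin 3, had control signals of 19.6, 7.6 and 31.8 and 1-day signals of 55.5, 54.8 and 42.3. The groups did not overlap, and the log2 difference was 1.35 ± 0.42. At 3 days, against the same controls, its signals were 36.8, 23.4 and 63.2. Cck, the cholecystokinin precursor, was at 19.5, 23.5 and 12.2 in control and 20, 85.1 and 51 at 1 day (1.16 ± 0.46), so that pair a hardly differed. Tac3, the neurokinin B precursor, was lower in every pair, at 87.4, 75.3 and 60.2 in control and 61.5, 26.8 and 8.2 at 1 day. Its difference was -1.41 ± 0.48, and -0.80 ± 0.40 without the 1-day array c.

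Of the enzymes that cut, trim and modify prohormones, 0 of 20 passed, 13 stood higher and 7 lower, with a median log2 difference of 0.04. Pam amidates the end of peptides, a step that both vasopressin and oxytocin need. It was higher in all 3 pairs, at 714, 989 and 1164 in control and 1059, 1327 and 1288 at 1 day (0.38 ± 0.18), and its 2 other tested probe sets stood at 0.26 and 0.28. Lnpep, an aminopeptidase that degrades oxytocin and vasopressin, was dim, at 9.4, 24.6 and 15.7 in control and 39.3, 68.6 and 19.1 at 1 day (1.09 ± 0.42). Cpe, a carboxypeptidase of the granule, was at 1740, 1556 and 1075 in control and 1002, 2216 and 1445 at 1 day, lower in pair a and higher in the others (0.05 ± 0.28, or -0.15 ± 0.31 without the 1-day array c). The prohormone convertase Pcsk2 differed by 0.07 ± 0.25, or 0.0073 ± 0.29 without it.

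**Figure D3:**
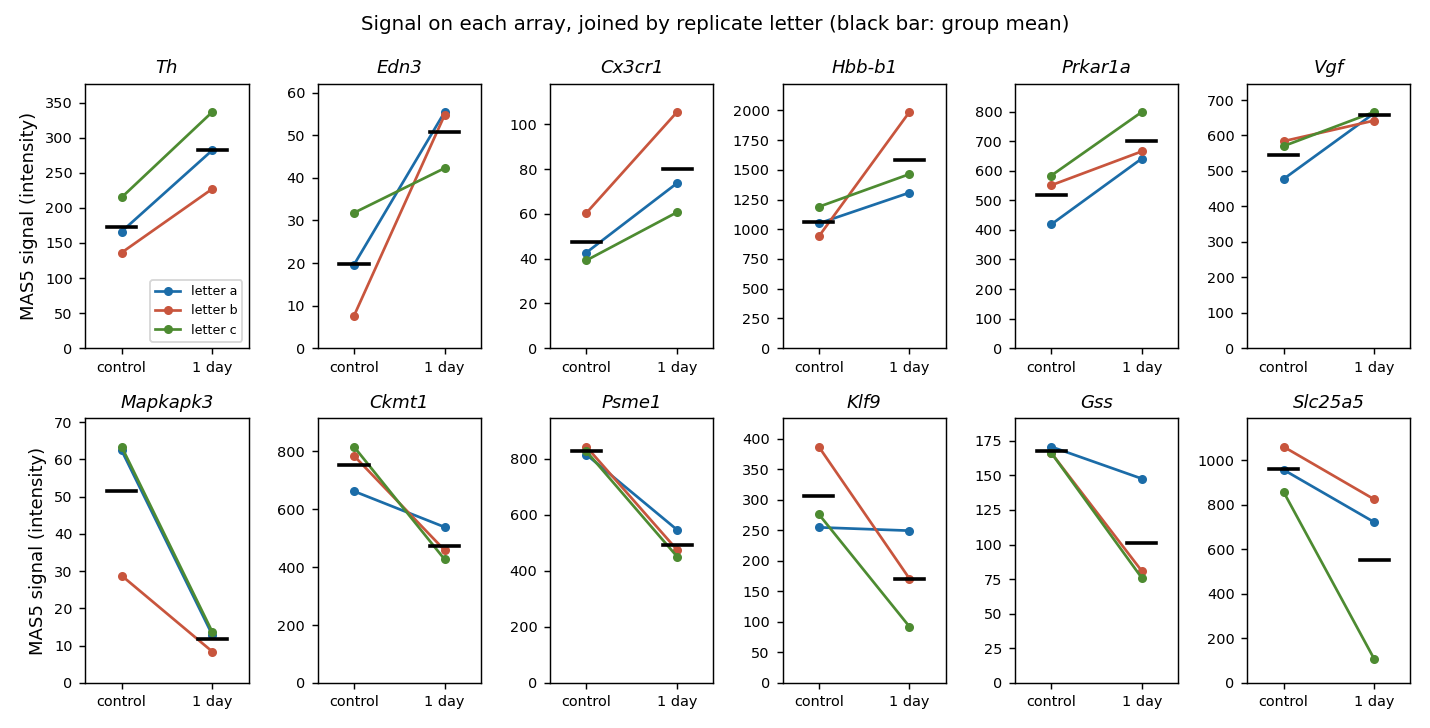
MAS5 signal (y axis, linear from 0) of 12 genes on the 3 control and 3 1-day arrays (x axis). Lines join arrays of the same letter and black bars are group means. The genes were picked for display after their values were seen. In all 12 the 1-day arrays lie on one side of the control arrays, Slc25a5 is far lower on the 1-day array c than on any other, and no gene passed the test.

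Th stood higher by a similar amount in every pair. It encodes tyrosine hydroxylase, the rate-limiting enzyme of catecholamine synthesis, which magnocellular vasopressin neurons are known to express. Its signals were 166, 136 and 215 in control and 282, 227 and 337 at 1 day. Every 1-day array exceeded every control array, and the 3 pairs differed by 0.75, 0.72 and 0.64 on the log2 scale. The fitted difference was 0.70 ± 0.17, a 1.63-fold ratio, with an unadjusted p of 0.0030 in limma and an adjusted p of 0.958. At 3 days, against the same controls, the signals were 256, 269.8 and 349. The rest of the catecholamine list did not stand on the side of Th: of 21 tested genes, 10 stood higher and 11 lower, with a median log2 difference of -0.05. The alpha-2 adrenoceptor genes stood higher in all 3 pairs. Adra2b was at 37.7, 29.4 and 51.5 in control and 63.4, 52.3 and 55.6 at 1 day (0.52 ± 0.29), without overlap. Adra2a differed by 1.09 ± 0.54, largely through pair b, where it was 9.0 in control and 95.6 at 1 day, and its other tested probe sets stood at 0.80 and -0.13.

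Immediate early genes, which neurons transcribe within minutes of stimulation, did not stand higher as a group after a day. Of 32 such genes and other stimulus-regulated transcription factors, 0 passed, 13 stood higher and 19 lower, with a median log2 difference of -0.07. Fos, the usual marker of neuronal activation, was at 237, 184 and 241 in control and 224, 158 and 253 at 1 day (-0.08 ± 0.20). Its other tested probe sets stood at 0.14 and -0.61. Egr1 was lower in every pair, at 207, 385 and 402 in control and 201, 299 and 323 at 1 day (-0.24 ± 0.18), while 2 of its other 3 tested probe sets stood higher, at 0.37 and 0.19. Arc, a synaptic plasticity gene, was at 154, 129.7 and 123 in control and 114, 90.3 and 157 at 1 day, lower in pairs a and b only (-0.19 ± 0.23, or -0.37 ± 0.25 without the 1-day array c). Junb differed by -0.12 ± 0.27, or -0.28 ± 0.31 without it.

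A few members of this list differed more. Klf9, a transcription factor induced by thyroid hormone and glucocorticoids, was at 255, 387 and 276 in control and 249, 171 and 92.1 at 1 day. All 1-day arrays lay below all control arrays (-0.91 ± 0.29; -0.64 ± 0.28 without the 1-day array c), but pair a hardly differed and its second probe set stood at -0.05. Homer1, a postsynaptic scaffold with an activity-induced short form, was lower in each pair, at 93.7, 116 and 61.5 in control and 71.5, 83.4 and 39.5 at 1 day (-0.47 ± 0.22). Its 3 other tested probe sets stood at -0.999, -0.43 and -0.23, but only the first of them was lower in each pair. Jund was higher in each pair, at 58.3, 74.8 and 3.2 in control and 66.5, 114 and 22.9 at 1 day (0.89 ± 0.39, or 0.59 ± 0.43 without the 1-day array c). Fosl2 stood higher too (0.78 ± 0.41). The brightest probe set of Jun differed by -0.09 ± 0.24 with the 1-day array c and -0.14 ± 0.30 without it. A dim one was at 20.4, 40.9 and 23.2 in control and 3.6, 4.5 and 1.8 at 1 day. It was one of the 5 probe sets at least 2-fold lower in every pair. Its mean over all arrays passed the filter on low signals, but without the control arrays it would not have.

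Ion channels and receptors, which set how the neurons fire, showed no common shift. Of 27 potassium channel genes 12 stood higher and 15 lower, with a median log2 difference of -0.03, or 0.04 without the 1-day array c. Of 28 sodium, calcium, HCN, TRP and chloride channel genes 15 stood higher and 13 lower, with a median log2 difference of 0.11. Cacna2d1, an accessory subunit of voltage-gated calcium channels, was higher in each pair, at 121, 264 and 201 in control and 170.2, 350.1 and 254 at 1 day (0.41 ± 0.20). Trpv1, of which a variant is held to sense osmotic shrinkage in these neurons, was dim, at 7.5, 10.3 and 14.7 in control and 14.6, 65.6 and 16.1 at 1 day. Its difference of 1.03 ± 0.59 came mostly from pair b. The mean of Trpv1 over all arrays passed the filter on low signals, but without the 1-day arrays it would not have. Kcnab1, an accessory subunit of Shaker-type potassium channels, was at 11.7, 27.3 and 10.2 in control and 17.1, 13.7 and 10.8 at 1 day (-0.11 ± 0.39).

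Of 22 glutamate receptor and scaffold genes 9 stood higher and 13 lower, with a median log2 difference of -0.04, or 0.0035 without the 1-day array c. For 23 genes of GABA and glycine transmission the median was 0.01 and turned negative after median centring. Gad1, which encodes a GABA-synthesizing enzyme, stood at 760.3, 1362 and 603 in control and 628, 1093 and 49.8 at 1 day. Its difference of -1.36 ± 0.67 became -0.24 ± 0.31 without the 1-day array c. Slc32a1, the vesicular GABA transporter, differed by -0.05 ± 0.17, or -0.11 ± 0.21 without it. Of 25 peptide and hormone receptor genes 11 stood higher and 14 lower, with a median log2 difference of -0.03. Among 28 receptors for monoamines, histamine, purines and acetylcholine 17 stood higher and 11 lower, with a median log2 difference of 0.07. The nicotinic subunit Chrnb2 had 1-day signals of 57.9, 23.9 and 37.1, all above its control signals of 14.3, 15.6 and 16.7 (1.09 ± 0.58). The mean of Chrnb2 over all arrays passed the filter on low signals, but without the 1-day arrays it would not have.

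Genes of osmolyte, water and ion transport stood on both sides of control. Of 24 tested members 13 stood higher and 11 lower, and the median of 0.01 turned negative after median centring and was -0.05 without the 1-day array c. Members' differences lay between -0.64 and 1.07. The highest was that of Slc12a3, the thiazide-sensitive sodium-chloride cotransporter, at 50.3, 8.5 and 16.7 in control and 52.5, 53.3 and 36.5 at 1 day (1.07 ± 0.49), with pair a hardly different. Akr1b1 encodes aldose reductase, which makes the osmolyte sorbitol. Its 1-day signals of 278, 222 and 170.5 all lay below the control signals of 289.8, 285 and 326, a difference of -0.44 ± 0.24, or -0.17 ± 0.22 without the 1-day array c. The other tested probe set of Akr1b1 stood at -0.21 and was higher in pair b. The lowest was that of Slc6a6, the taurine transporter, at 64.1, 34.4 and 28.3 in control and 49.6, 5.9 and 38.3 at 1 day (-0.64 ± 0.48, or -1.16 ± 0.48 without that array). Slc12a2, the sodium-potassium-chloride cotransporter, was unresolved from control, at 183, 276 and 249 and 185, 290.2 and 238 (0.0078 ± 0.19, or -0.04 ± 0.22 without the array). Aqp4, the astrocyte water channel, differed by 0.35 ± 0.24, or 0.10 ± 0.24 without the array. Among 15 sodium-potassium and calcium pump and exchanger genes 5 stood higher and 10 lower, with a median log2 difference of -0.12, while the medians within pairs a and b were positive, at 0.11 and 0.07. Atp1b1, a subunit of the sodium pump, was at 3547, 3466 and 1491 in control and 3734, 3019 and 1273 at 1 day (-0.12 ± 0.37, or 0.20 ± 0.40 without the 1-day array c).

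The machinery of vesicle release was split evenly, with 27 of 54 tested genes higher and 27 lower. The median of 0.04 turned negative, to -0.0018, after median centring. Gdi2, a recycling factor for Rab GTPases, was higher in each pair, at 219.6, 359 and 249 in control and 271, 471 and 332 at 1 day (0.37 ± 0.16). So was Snap91, a clathrin adaptor of synaptic vesicle recycling, at 50.4, 106 and 65.9 in control and 83.5, 131 and 103 at 1 day (0.53 ± 0.24). Sncb, which encodes beta-synuclein, was lower on all 1-day arrays, at 222, 254 and 199.9 in control and 154, 184 and 29.9 at 1 day. Its difference was -1.19 ± 0.51, and -0.50 ± 0.39 without the 1-day array c. The fusion protein Snap25 differed by -0.22 ± 0.19.

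Folding in the endoplasmic reticulum, through which prohormones pass, showed no shift as a group. Of 31 tested genes 15 stood higher and 16 lower, and the median of -0.02 turned to 0.0048 after quantile normalization and to 0.02 without the 1-day array c. Hspa5, the main chaperone of this compartment, was at 337, 548 and 508 in control and 360.0, 461 and 491 at 1 day (-0.07 ± 0.18, or -0.14 ± 0.21 without that array). Sec61b, a subunit of the channel through which new proteins enter, had 1-day signals of 199, 281 and 260.5, all above control at 186, 192 and 185 (0.37 ± 0.18). Rpn1, a subunit of the enzyme that adds sugar chains, was higher in each pair (0.43 ± 0.19). The chaperones Hyou1 (-0.53 ± 0.21) and Hspa13 (-0.83 ± 0.40) were lower in each pair, with Hyou1 at 214, 311 and 317 in control and 165, 262 and 158 at 1 day. A second tested probe set of Hyou1 stood at 0.04 and was higher in pairs a and b.

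Chaperones of the cytosol and mitochondria leaned lower. Of 28 tested genes, 7 stood higher and 21 lower, with a median log2 difference of -0.12, and the median stayed negative under the other scalings. The summed signal of the 30 listed genes on the array was 8408, 9435 and 8535 in control and 7910, 7411 and 8238 at 1 day, so that the groups did not overlap. Without Hsp90ab1, its brightest member, the sum was 5822, 6713 and 7641 in control and 5601, 5674 and 7284 at 1 day, and the groups overlapped. Within letter pairs the list's median was -0.06, -0.25 and 0.04. In all 3 pairs 7 of 28 (25%) were lower, beside 9.28% of all tested probe sets, and 5 (17.9%) were higher, beside 16.8%. Hsp90ab1, a major cytosolic chaperone, was at 2586, 2722 and 894 in control and 2309, 1736 and 954 at 1 day, lower in pairs a and b and slightly higher in pair c (-0.24 ± 0.42, or -0.06 ± 0.48 without the 1-day array c), while its 3 other tested probe sets stood at -0.25, -0.0047 and -0.0039. Dnaja1, a cochaperone, differed by -0.60 ± 0.39, and -0.11 ± 0.32 without the 1-day array c. Its other tested probe set stood at -0.55, lower in pairs a and b and higher in pair c. Hspa1a, the inducible heat shock protein, was dim and higher in each pair (0.86 ± 0.49). Its signals were 28.2, 7.7 and 14.3 in control and 28.8, 42.1 and 23.2 at 1 day. Their mean over all arrays passed the filter on low signals, but without the 1-day arrays it would not have.

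In energy metabolism, nuclear and mitochondrial transcripts of the respiratory chain stood on opposite sides of control, though the difference between these 2 groups of genes was not tested. Of 52 nuclear genes of the respiratory chain and ATP synthase 12 stood higher and 40 lower, with a median log2 difference of -0.11, and the median was -0.18 without the 1-day array c. The median within letter pairs was -0.22, -0.07 and 0.05, so pair c did not share the direction. The complex I subunit Ndufb3 was at 393, 405 and 623 in control and 192, 170.0 and 700.4 at 1 day (-0.70 ± 0.32, or -1.13 ± 0.25 without that array). Atp5pf, a subunit of ATP synthase, differed by -0.97 ± 0.52, and -0.19 ± 0.34 without the 1-day array c. The 3 mitochondrially encoded genes on the array, all subunits of cytochrome c oxidase, stood higher. COX1 was at 2451, 2337 and 1358 in control and 2483, 2987 and 1808 at 1 day, higher in each pair (0.26 ± 0.21), but its other tested probe set stood at 0.03 and was lower in pairs a and c. COX2 was at 1013, 785 and 1331 in control and 1137, 1178 and 1924 at 1 day, also higher in each pair (0.43 ± 0.25). COX3 differed by 0.09 ± 0.37, or 0.25 ± 0.43 without the 1-day array c. The ratio of 3' to 5' signal of beta-actin was 1.13 to 1.48 at 1 day and 0.74 to 1.07 in control, and that of Gapdh was 0.85 to 1.05 and 0.93 to 1.09. Their part in these list values was not tested.

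Of 24 genes of creatine kinases, adenylate kinases and mitochondrial carriers 13 stood higher and 11 lower, with a median log2 difference of 0.07. In all 3 pairs 8 (33.3%) were higher, beside 16.8% of all tested probe sets. Ckmt1 encodes the mitochondrial creatine kinase, which hands the energy of new ATP to creatine. It stood lower in every pair, at 662, 785 and 816 in control and 538, 458 and 427 at 1 day. The groups did not overlap, and the difference was -0.67 ± 0.19 (-0.61 ± 0.23 without the 1-day array c). A second probe set of Ckmt1 stood at -0.21. The cytosolic brain form, Ckb, was higher in each pair, at 2288, 1962 and 1431 in control and 2514, 2790 and 1720 at 1 day (0.30 ± 0.31, or 0.52 ± 0.35 without that array), as was the muscle form Ckm at low signals (0.78 ± 0.33). The second tested probe set of Ckb stood at 0.25 and was lower in pairs a and c, at -0.02 and -0.05. The carriers that exchange ADP for ATP across the inner mitochondrial membrane were far lower on the 1-day array c. Slc25a5 was at 957, 1061 and 858 in control and 722, 825 and 107 at 1 day, a difference of -1.24 ± 0.47, and -0.46 ± 0.23 without that array. Slc25a4 was at 2039, 2124 and 1450 in control and 1769, 1716 and 263 at 1 day, a difference of -0.99 ± 0.47, and -0.19 ± 0.25 without it. For Slc25a5 the 1-day arrays of letters a and b also lay below every control array.

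Glycolysis and the citric acid cycle were split, with 22 of 42 tested genes higher and 20 lower, and the median of 0.01 turned negative under both other scalings and was -0.03 without the 1-day array c. Hk2, a hexokinase that starts glycolysis, was at 124, 125 and 81.5 in control and 118, 28.7 and 25.6 at 1 day. It was close to its partner in pair a and much lower in pairs b and c (-1.19 ± 0.38). Pfkfb2, whose product stimulates glycolysis, was dim and higher in each pair (1.00 ± 0.47). Its mean over 9 arrays, 24.0, passed the filter of 23.1 only through the 1-day array b, where it was at 75.6. Pdha1, a subunit of pyruvate dehydrogenase, was lower in each pair, at 466, 582 and 729 in control and 465, 454 and 467 at 1 day (-0.33 ± 0.19). Its other tested probe set stood at -0.16 and was higher in pairs a and b. Pdk2, a kinase that inhibits pyruvate dehydrogenase, differed by -0.94 ± 0.43, and -0.23 ± 0.21 without the 1-day array c. Aldoc, an astrocyte aldolase, differed by 0.06 ± 0.34, or 0.34 ± 0.37 without it, and its other tested probe set stood at -0.10.

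Protein synthesis showed small and mixed differences. Of 39 genes of cytosolic ribosomal proteins 16 stood higher and 23 lower, with a median log2 difference of -0.07, with 4 whose 1-day arrays all lay below control, beside 1.58% of all tested probe sets, and 0 all above, beside 2.63%. Rps16 was one of the 4, at 1745, 1682 and 1535 in control and 1517, 1533 and 823 at 1 day (-0.41 ± 0.27; -0.07 ± 0.25 without the 1-day array c). Rpl30 was the member with the largest difference (-1.98 ± 0.53), at least 2-fold lower in each pair. Its dim signals were 26.8, 62.9 and 34.3 in control and 9.4, 15.4 and 1 at 1 day. Their mean over all arrays passed the filter on low signals, but without the control arrays it would not have. Ribosomal protein genes have many near-identical pseudogenes, so their probe sets may not tell the copies apart. Of 22 translation factors 14 stood higher and 8 lower, with a median log2 difference of 0.08. Eif3b, a subunit of the initiation factor that binds the small ribosomal subunit, was higher on all 1-day arrays, at 428, 412 and 433 in control and 493, 494 and 662 at 1 day (0.36 ± 0.18). Its other tested probe set stood at 0.14 and was lower in pair a. The elongation factor Eef1a1 was higher in each pair, at 619.7, 854 and 411 in control and 654, 1223 and 579 at 1 day (0.36 ± 0.18), with its other tested probe set at 0.01. Eif2d, a noncanonical initiation factor, was at 15.1, 74 and 41.6 in control and 5.2, 9.4 and 13.2 at 1 day (-1.67 ± 0.47). Like Rpl30, it would not have passed the filter without the control arrays. Pelo, a ribosome rescue factor, was at 63.4, 65 and 96.7 in control and 27.6, 51.6 and 30.2 at 1 day (-0.99 ± 0.33), again without overlap.

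Protein breakdown gave 1 bright gene with separated groups. Psme1 encodes the alpha subunit of the PA28 proteasome activator and was at 814, 842 and 826 in control and 546, 474 and 451 at 1 day. The difference was -0.75 ± 0.29, but its other tested probe set stood at 0.28, so the direction depends on the probe set. Psme2, the beta subunit of the same ring, was higher in each pair, at 41.7, 65.8 and 63.3 in control and 64.7, 103 and 69.8 at 1 day (0.45 ± 0.23). Of 34 tested genes of the proteasome and ubiquitin system 15 stood higher and 19 lower, with a median log2 difference of -0.05. Psmd4, a ubiquitin receptor of the proteasome, shows how far array c bears on values: its difference was -0.83 ± 0.57 with the 1-day array c and 0.15 ± 0.21 without it.

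Second messenger genes showed no common shift. Of 86 genes of cyclic AMP, calcium and protein kinase signalling, 46 stood higher and 40 lower, and the median of 0.03 turned negative after median centring and was -0.01 without the 1-day array c. In all 3 pairs 15 (17.4%) were higher, beside 16.8% of all tested probe sets, and 5 (5.81%) were lower, beside 9.28%. Prkar1a, a regulatory subunit of the cyclic AMP-dependent kinase, was at 418, 551 and 584 in control and 642, 666 and 799 at 1 day. Every 1-day array exceeded every control array, with a difference of 0.44 ± 0.18. Gng7, a G protein gamma subunit, was higher in each pair, at 172, 122 and 154 in control and 225, 161 and 270.4 at 1 day (0.52 ± 0.21, or 0.32 ± 0.22 without the 1-day array c), and its second probe set stood at 0.11. Gnao1, the alpha subunit of the G protein Go, was lower in each pair, at 904, 854 and 1253 in control and 832, 475 and 1034 at 1 day (-0.41 ± 0.20). Its other tested probe set stood at -0.19 and was higher in pair c.

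Among 28 genes of MAP kinase cascades 15 stood higher and 13 lower, with a median of 0.01 that turned negative under both other scalings and was -0.07 without the 1-day array c. Mapkapk3, a kinase activated by the p38 MAP kinase, was at least 2-fold lower in every pair, with an unadjusted p of 0.0016 in limma and an adjusted p of 0.958. Its signals were 62.4, 28.8 and 63.4 in control and 12.9, 8.4 and 13.7 at 1 day, a difference of -1.77 ± 0.39, and its other tested probe set stood at -0.80.

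Growth factor and matrix genes differed mainly at low signals. Of 48 growth factor and receptor genes 18 stood higher and 30 lower, with a median log2 difference of -0.09. Without the 1-day array c that median was 0.02. Tgfb2, which encodes transforming growth factor beta 2, was higher on all 1-day arrays, at 39.5, 13.1 and 39.1 in control and 85.8, 54 and 53.5 at 1 day (1.07 ± 0.38). Tgfa, a ligand of the EGF receptor, was at 24.7, 16.3 and 25.1 in control and 32.6, 42.7 and 36.5 at 1 day, also without overlap (0.68 ± 0.36). Ntrk3, the neurotrophin-3 receptor, differed by -0.96 ± 0.43, and Ntrk2, the receptor of brain-derived neurotrophic factor, by 0.20 ± 0.20, or 0.08 ± 0.23 without that array. Of 48 matrix genes 24 stood higher and 24 lower, and without the 1-day array c 32 stood higher and 16 lower, with a median of 0.07. Cspg4, the NG2 proteoglycan of oligodendrocyte precursors and pericytes, was higher on all 1-day arrays, at 29.1, 9.7 and 37.1 in control and 63.4, 42.2 and 42.2 at 1 day (0.98 ± 0.37). The matrix metalloproteinase gene Mmp11 was lower on all of them (-1.04 ± 0.47). It was at 40.7, 32.4 and 20.7 in control and 7.2, 13.1 and 20.1 at 1 day. The mean of Mmp11 over all arrays passed the filter on low signals, but without the control arrays it would not have. Among 60 cytoskeletal genes 35 stood higher and 25 lower. Dync1i1, a dynein subunit, differed by -1.34 ± 0.61, and -0.29 ± 0.23 without the 1-day array c. Actb differed by 0.03 ± 0.21, or 0.06 ± 0.27 without it.

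In lipid metabolism 32 tested genes gave a median of -0.03, or 0.0067 without the 1-day array c. Acsl3, which activates long-chain fatty acids, was higher in each pair, at 212, 378 and 216 in control and 326, 412 and 413 at 1 day (0.55 ± 0.20). Scarb1, a receptor for high-density lipoprotein, was at 74.4, 95.5 and 152 in control and 243, 318 and 125 at 1 day, much higher in pairs a and b and lower in pair c (1.02 ± 0.41). Without the 1-day array c its difference was 1.70 ± 0.21 and its limma adjusted p 0.073, the smallest of any probe set under the 17 alternative settings, while its 2 other tested probe sets stood at 0.30 and -0.70. Fdft1, the squalene synthase gene, was lower on all 1-day arrays, at 284, 277 and 276 in control and 242, 226 and 195 at 1 day (-0.33 ± 0.19, or -0.21 ± 0.21 without the 1-day array c), while its 3 other tested probe sets stood at 0.35, 0.05 and -0.15, so its direction depends on the probe set.

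Of 35 antioxidant genes 15 stood higher and 20 lower, with a median log2 difference of -0.05. Genes of glutathione synthesis stood on both sides. Gss, glutathione synthetase, was at 171, 166 and 166 in control and 148, 80.8 and 75.8 at 1 day, without overlap (-0.77 ± 0.26; -0.53 ± 0.26 without the 1-day array c). Gclm, a subunit of the enzyme of the preceding step, was higher on all 1-day arrays, at 15.8, 22.5 and 39.1 in control and 60.8, 41.6 and 53.5 at 1 day (0.97 ± 0.41). Txn2, the mitochondrial thioredoxin, was higher in each pair, at 507, 448 and 712 in control and 662, 701 and 852 at 1 day (0.43 ± 0.17). Among 28 nuclear receptor and steroid genes 13 stood higher and 15 lower, with a median log2 difference of -0.04, or 0.04 without that array. Nr3c2, the mineralocorticoid receptor gene, was at 16.6, 26.5 and 26.1 in control and 34, 4.8 and 9 at 1 day (-0.71 ± 0.55). Its other probe set, under the filter, stood at 1.075 and was higher in each pair, so the direction depends on the probe set. Thra, a thyroid hormone receptor gene, differed by 0.04 ± 0.21, or -0.02 ± 0.24 without the 1-day array c.

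**Figure D4:**
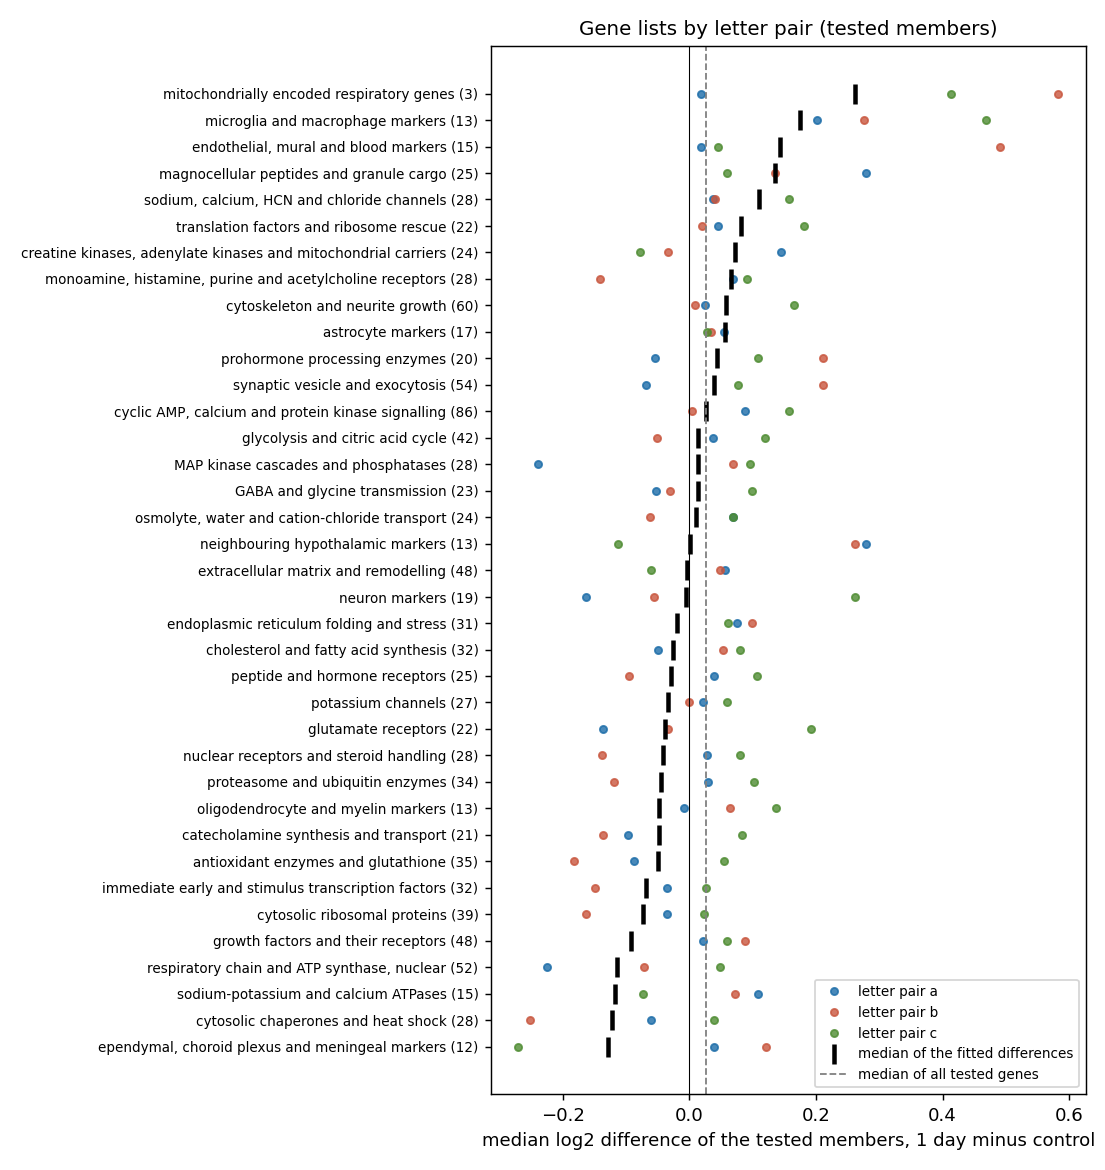
Median log2 difference (x axis) of the tested members of each of the 37 gene lists (y axis, with the number of tested members). Coloured points are medians within letter pairs a, b and c, black marks the median of the fitted differences, and the dashed line is the median of all tested genes. The fitted medians lie between -0.13 and 0.26, and the letter pairs of a list often lie on both sides of 0.

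Across all 37 lists, 18 medians were positive and 19 negative, with 11 positive after median centring. In 11 lists the median was positive in all 3 letter pairs, and in 0 it was negative in all 3. The summed signals of the 2 groups did not overlap for the cytosolic chaperones, the microglial markers and the vascular and blood markers. For every other list they overlapped. Whether 3 of 37 lists is more than unrelated arrays would give was not tested. The widest shifts were those of the 3 mitochondrially encoded genes, at 0.26, and of the microglial markers, at 0.17.

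Most markers of microglia and macrophages, the immune cells of the brain, stood higher. Of 13 tested markers 9 stood higher and 4 lower, with a median log2 difference of 0.17, and the median within letter pairs was 0.20, 0.28 and 0.47. Without the 1-day array c the list's median was 0.35. The 4 lower members were Ccl2, a chemokine, at -0.35 ± 0.49, Cd14, a receptor for bacterial products, at -0.32 ± 0.35, Lyz2, a lysozyme, at -0.13 ± 0.85, and Cd37, a tetraspanin, at -0.12 ± 0.44. In all 3 pairs 5 of 13 (38.5%) were higher, beside 16.8% of all tested probe sets, and 0 were lower, beside 9.28%. The summed signal of the 21 markers on the array was 1873, 1830 and 1701 in control and 2114, 2154 and 2388 at 1 day, without overlap. Cx3cr1, the fractalkine receptor that marks microglia in the brain, was at 42.7, 60.4 and 39.2 in control and 73.7, 106 and 60.7 at 1 day. Every 1-day array exceeded every control array (0.69 ± 0.23; adjusted p = 0.958 in limma). Ctss, the lysosomal protease cathepsin S, was the largest part of the sum on every array, at 975, 1104 and 899 in control and 1022, 1246 and 1488 at 1 day (0.32 ± 0.20). Most of that difference came from pair c, and it was 0.15 ± 0.22 without the 1-day array c. Without Ctss the sum of the other 20 markers was 898, 726 and 802 in control and 1091, 909 and 899.5 at 1 day, again without overlap. C1qc, a complement subunit, was higher in each pair, at 161, 112 and 145 in control and 208, 136 and 162 at 1 day (0.26 ± 0.18). The class II histocompatibility gene RT1-Da was at 39.2, 40.1 and 33.7 in control and 45.7, 71.4 and 53.4 at 1 day (0.53 ± 0.32), while its second tested probe set stood at -0.73. Ptprc, the CD45 antigen of white blood cells, differed by 1.03 ± 0.59. It was at 43.5, 7.2 and 10.7 in control and 40.6, 36.7 and 32.5 at 1 day. The mean of Ptprc over all arrays passed the filter on low signals, but without the 1-day arrays it would not have.

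**Figure D5:**
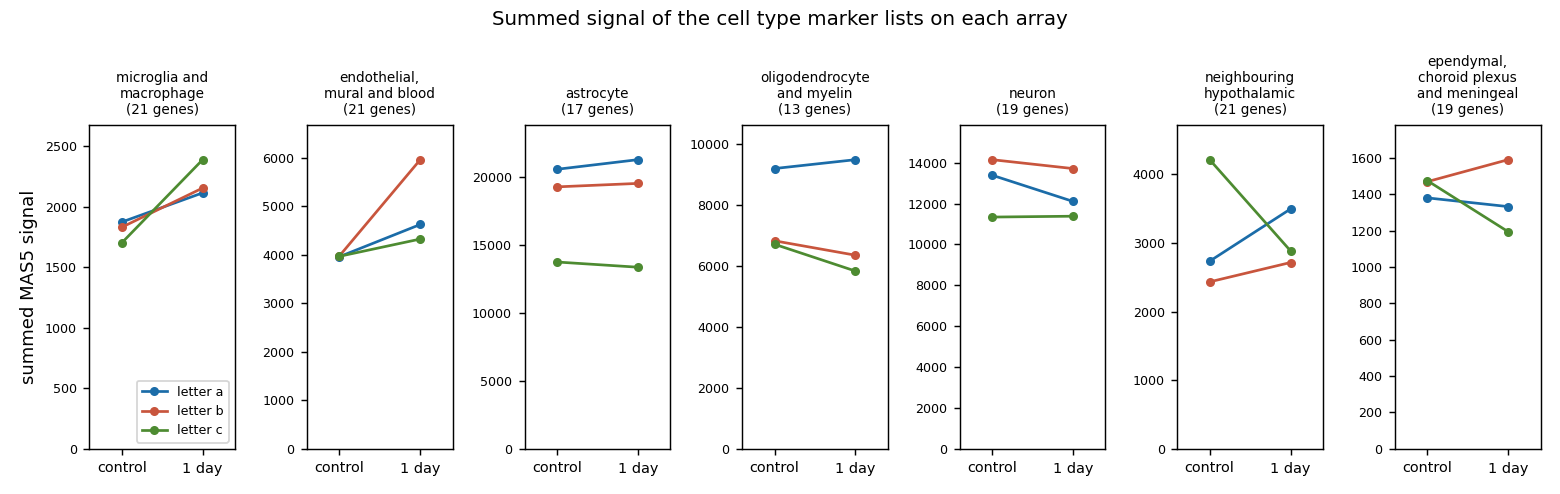
Summed MAS5 signal (y axes, linear from 0, one scale per panel) of the marker genes of 7 cell types or neighbouring tissues on the control and 1-day arrays (x axis), joined by letter. The microglial and the vascular and blood sums lie higher on all 1-day arrays than on all control arrays, and the other 5 sums overlap between groups.

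Transcripts of red blood cells also stood higher. Hbb-b1, a beta globin gene, was at 1049, 939.6 and 1189 in control and 1308, 1987 and 1464 at 1 day, and the groups did not overlap (0.56 ± 0.22). Hbb was at 1624, 1564 and 1653 in control and 2128, 2365 and 1698 at 1 day, again without overlap (0.34 ± 0.21, or 0.53 ± 0.23 without the 1-day array c). The 2 globin sequences are closely alike, so their probe sets are not independent. The summed signal of 21 endothelial, mural and blood markers was 3958, 3972 and 3966 in control and 4622, 5957 and 4322 at 1 day, most of it from the globins. Of 15 tested members 9 stood higher and 6 lower, with a median log2 difference of 0.14. That median was 0.38 without the 1-day array c and -0.0031 without the 1-day array b, which had the highest of these sums. The endothelial receptor gene Flt1 was lower in each pair (-0.42 ± 0.26). The part of blood left in the tissue in the microglial values was not tested.

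The other cell types overlapped between groups. Of 17 astrocyte markers 11 stood higher and 6 lower, and the median of 0.06 turned to -0.0038 after quantile normalization and was 0.14 without the 1-day array c. Of 13 oligodendrocyte markers 6 stood higher and 7 lower, with a median log2 difference of -0.05, or 0.09 without the 1-day array c. The myelin gene Mobp was at 2604, 793 and 1170 in control and 3110, 568 and 98.2 at 1 day, a difference of -1.25 ± 0.67, and -0.09 ± 0.25 without the 1-day array c. Letter a was the highest of the letters in both groups for Mobp and for Mbp. Of 19 neuron markers 9 stood higher and 10 lower, with a median of -0.0044 that turned to 0.0071 after quantile normalization. Without the 1-day array c, 4 neuron markers stood higher and 15 lower, with a median of -0.09. Markers of neighbouring hypothalamic nuclei gave 7 higher and 6 lower of 13. Their summed signal was 2734, 2433 and 4213 in control and 3495, 2715 and 2884 at 1 day, so control array c was the highest of the 6. Of 12 ependymal, choroid plexus and meningeal markers 3 stood higher and 9 lower, with a median log2 difference of -0.13. Without the 1-day array c, 8 stood higher and 4 lower, with a median of 0.04. Ttr, the transthyretin gene of the choroid plexus, was at 119.8, 33.8 and 33.5 in control and 28.9, 47.4 and 8.4 at 1 day (-1.02 ± 0.48, or -0.65 ± 0.51 without that array).

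Outside these lists, the genes with the smallest p values were mostly dim. The probe set of 1810009J06Rikl was at 9.7, 27.4 and 38.9 in control and 71.2, 112 and 64.2 at 1 day (1.67 ± 0.39). Foxd1, a forkhead transcription factor, was at 5.7, 8.6 and 14 in control and 108, 35.6 and 21.7 at 1 day, a difference of 1.90 ± 0.64 that was largest in pair a. At 3 days its signals were 10.6, 13.7 and 4.5, so its mean of 24.8 passed the filter of 23.1 only through the 1-day arrays. Its other probe set, under the filter, differed by -0.05, -0.08 and 1.99 in the 3 pairs. Vav2 was higher in each pair, at 29.3, 28.8 and 7.8 in control and 54.7, 75.3 and 23.4 at 1 day (1.10 ± 0.36). Renbp, which encodes a renin-binding protein, was at 19.6, 16.4 and 66.4 in control and 83.6, 65 and 69.9 at 1 day (1.24 ± 0.40), with hardly any difference in pair c and with other tested probe sets at 0.43 and 0.06. At higher signals, Arfgap2, a regulator of vesicle coats, was at 246, 149 and 178 in control and 311, 234 and 270.2 at 1 day (0.52 ± 0.19). Scp2, a sterol carrier, was at 161, 221 and 198 in control and 216, 398 and 226 at 1 day (0.48 ± 0.20).

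On the lower side, Pou3f2, a POU transcription factor needed for magnocellular neurons to develop, was at 89, 52.5 and 60.9 in control and 74.7, 14.7 and 23.1 at 1 day, mostly through pairs b and c (-1.03 ± 0.33). Pisd makes phosphatidylethanolamine in mitochondria and was at 126, 133 and 121 in control and 71.7, 65.6 and 98.7 at 1 day, without overlap (-0.68 ± 0.21). Its second probe set stood at -0.83. Mpst, a sulfurtransferase, was at 72, 88.4 and 77.2 in control and 3.8, 41.7 and 69.6 at 1 day, a difference of -1.48 ± 0.54 led by pair a. Cited2, a transcriptional coregulator, differed by -1.06 ± 0.37, or -0.52 ± 0.26 without the 1-day array c, and its other tested probe set by 0.52. Ptp4a2, a phosphatase gene at 339, 262 and 267 in control and 305, 194 and 35.8 at 1 day, differed by -1.11 ± 0.47, and by -0.34 ± 0.24 without the 1-day array c. Ralgds, an activator of Ral GTPases, differed by -0.93 ± 0.41, and by -0.25 ± 0.20 without it.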

How the data were processed

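Total RNA of the supraoptic nucleus was hybridised to Affymetrix rat arrays. The deposited values are intensities. Per the submitters' processing notes the authors used MAS5 to make them; its version and the genome build are not given in the sources used here. This software reduces the probes of a probe set to 1 signal on a linear scale, and signals near 0 carry little information. Of 8799 probe sets in the table, 8740 are no array controls. The platform annotation pairs 7006 of them with 1 gene symbol, 308 with several and 1426 with none. A match by gene ID to the RefSeq table of GRCr8 succeeded for 6985 of the 7006 and changed 0 symbols. Where a gene had several probe sets with 1 symbol, the one with the highest mean over 9 arrays stands for it.

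Signals were taken to log2(signal + 4), the pseudocount being the 10th percentile of all values, rounded. Fold changes on this scale understate those of dim genes. Only the 5247 probe sets with a mean over 9 arrays of at least 23.1, the 40th percentile, were tested. limma 3.58.1 (R 4.3.3) fitted the 3 groups on all 9 arrays, blocked by replicate letter and with 4 residual degrees of freedom, with an intensity-dependent variance prior, two-sided moderated tests and Benjamini-Hochberg adjustment at 0.05. The fit was tested on simulated data. The pairing rests on the letters in the titles: once group means were removed, the 9 same-letter pairs of arrays had r between 0.17 and 0.47 over the tested probe sets, and pairs that shared neither letter nor group had r between -0.33 and 0.12. Where same-letter values are positive, removing the means of such small groups itself pushes those between letters down. The contrast is thus partly built in.

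The 37 gene lists (30 of pathways, 7 of cell types, 1873 genes, of which 1298 were on the array and 1019 tested) and the other choices were made with earlier results of these data known. Named genes are the 15 per direction with the smallest p whose 3 pairs stand on the same side, 8 per direction among the brightest 25%, the 4 smallest p and 2 brightest of each list, and 46 fixed genes, of which 33 were tested. Alternatives were no block, pseudocounts of 1 and 16, other filters, scalings and variance priors, the 6 arrays alone, each array left out, and all probe sets per gene; leaving out both arrays of letter c was added after seeing the data. Depth does not apply to arrays, and 3 arrays per group limit the precision. Python 3.11.15 and matplotlib 3.10.9 drew the figures.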

Additional observations from a re-analysis of the deposited data

How the results depend on the processing

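In limma, 0 probe sets passed the threshold under the main setting and all 17 alternatives, with the smallest adjusted p between 0.073 (without 1-day array c) and 1.0. Without the replicate block, 53 probe sets had an unadjusted p under 0.05, against 136 with it, since the standard errors were larger; the fold changes were the same. The count was 266 with no filter, 81 with the filter at the 60th percentile and 90 to 250 with 1 array left out. Probe sets whose groups did not overlap numbered 221, and 410 with no filter and 127 with the stricter filter, which change how many are tested. Lists with a positive median numbered 18, and 11 after median centring. With 1 array left out they numbered 15 to 24, and 26 of 37 lists changed the sign of their median under at least 1 alternative. Of 94 followed genes past their standard error, 1 changed direction: Psmd4, between -1.40 and 0.15 with 1 array left out, the latter without 1-day array c, and 0.19 without both arrays of letter c; on the 1-day array c it was the lowest of all arrays. Many of these 94 were named from the same data for a small p or for letter pairs on the same side, so few changes of direction were likely from the start. Of 23 followed genes within their standard error, 18 changed sign under at least 1 alternative. Differences of dim probe sets are limited by signal over background, and detection calls were not used here.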
